A study of Mus musculus with 2 samples.

Results

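Transcripts of genes of de novo serine synthesis and of folate carbon metabolism, with Asns and Atf4, were counted in single cells of PyMT-M and PyMT-N mammary tumors. The set holds 8 of the 33696 genes counted in both libraries: Phgdh, Psat1, Psph, Shmt1, Shmt2, Mthfd2, Asns and Atf4. They were chosen by name, with their levels in tumor and endothelial cells of these libraries already known, so those levels are given as a description. Each was found in both libraries under its own symbol and Ensembl identifier, from ENSMUSG00000053398 for Phgdh to ENSMUSG00000042406 for Atf4.

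PyMT-M (High-MAC, rich in macrophages) and PyMT-N (Low-MAC) are sublines of the MMTV-PyMT model, in which the mammary tumor virus promoter drives the polyoma middle T oncogene. Both were grown from cultured cells injected into the mammary fat pad of female C57BL/6 mice aged 6 to 8 weeks, and the labels name no treatment. Dissociated tumors were depleted of CD45+ and Ter119+ cells, selected on beads for CD31 and CD144, and sorted. Cells of 3 tumors were pooled for each subline into 1 droplet library, so no difference between PyMT-M and PyMT-N was tested, no p-value is given, and subline, library and pool cannot be told apart. Intervals below are exact 95% Poisson or Clopper-Pearson intervals and cover counting error only.

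The PyMT-M library held 7821 barcodes and 141067264 unique molecular identifiers (UMIs, counts of single captured transcripts). In the PyMT-N library there were 6974 barcodes with 116150425 UMIs. Of these, 6719 and 5607 cells had at least 200 detected genes and at most 10% mitochondrial UMIs, with medians of 21262 and 18558 UMIs, and 20 barcodes occurred in both libraries. Cells were placed in classes by marker UMIs. Blood endothelial cells numbered 583 in PyMT-M against 1013 in PyMT-N, lymphatic cells 20 and 204, fibroblasts 45 and 53, and cells with a UMI of Ptprc, which encodes CD45, 441 and 278. Tumor cells, taken as cells with at least 3 UMIs of Krt8, Krt18 and Rhox5 and none of Pecam1 and Flt1, were 4849 (72.2% of kept cells) and 3278 (58.5%), although both libraries were labelled endothelial and had been sorted. Markers that the rules did not use were present in the endothelial, lymphatic, fibroblast and Ptprc+ classes, with all markers of a list at 10 CPM (counts of a gene per 1000000 UMIs of the class) or more in its own class. The tumor class did not show an epithelial profile. Of 9 epithelial markers only Wfdc2 reached 10 CPM, at 217 CPM (PyMT-M) and 32.7 CPM (PyMT-N), while Krt5 had no UMI and Epcam stood at 3.54 and 0.414 CPM. Some stromal markers were present, and they differed between the libraries. The 7 fibroblast markers summed to 53.3 CPM in PyMT-M tumor cells and to 250.4 CPM in those of PyMT-N, with Dcn at 0.142 and 75.1 CPM. Pdgfra (34.2 and 57.7 CPM) and Col1a1 (17.6 and 87.3 CPM) made up much of these sums. Col1a2, Lum and Fbln1 were at most 2.26 CPM in the tumor cells of either library. In the fibroblast class the same 7 markers summed to 24734 and 24708 CPM, far above the tumor cells. The 4 pericyte markers summed to 39.0 and 260.1 CPM, almost all of it Pdgfrb (36.5 and 244 CPM), while Rgs5 was at 0.0585 and 0.134 CPM. The name tumor cells therefore means below only that a cell met the rule, and the part of these markers in the differences was not tested.

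Serine is made from the glycolytic intermediate 3-phosphoglycerate. PHGDH oxidizes it, PSAT1 adds an amino group from glutamate, and PSPH removes the phosphate. SHMT1 in the cytosol and SHMT2 in mitochondria then split serine into glycine and a carbon unit carried by folate, and MTHFD2 oxidizes that unit inside mitochondria for purine and thymidylate synthesis. ASNS makes asparagine. ATF4 is the transcription factor of the amino acid and stress response that is known to activate many of these genes, and its own output is set largely by translation, which transcript counts do not measure. The pathway is known for its use by proliferating cells, in mammary cancer among others, and endothelial cells are known to need PHGDH when they divide.

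Promoter sequences are shown because the genes were higher together in PyMT-M tumor cells. RefSeq (GRCm38.p6, a build other than the mm39 of the counts) gave a start for all 8 genes and a second one for Psat1. The 250 bases before each start were searched on both strands for TGATGNAA, the core of the element bound by C/EBP and ATF4 dimers, for the E-box CACGTG, and for CCAAT. Phgdh (chr3:98339970-98340219, minus strand) and Mthfd2 (chr6:83317605-83317854, minus strand) are printed as carriers of CCAAT, on either strand, and Asns (chr6:7693210-7693459, minus strand) as the carrier of TGATGNAA, with the matches in capitals.

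Phgdh: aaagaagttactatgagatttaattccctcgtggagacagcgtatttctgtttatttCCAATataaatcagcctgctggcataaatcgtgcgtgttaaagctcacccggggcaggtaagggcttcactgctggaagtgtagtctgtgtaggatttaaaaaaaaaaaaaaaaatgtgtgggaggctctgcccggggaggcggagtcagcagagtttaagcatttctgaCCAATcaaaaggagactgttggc

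Mthfd2: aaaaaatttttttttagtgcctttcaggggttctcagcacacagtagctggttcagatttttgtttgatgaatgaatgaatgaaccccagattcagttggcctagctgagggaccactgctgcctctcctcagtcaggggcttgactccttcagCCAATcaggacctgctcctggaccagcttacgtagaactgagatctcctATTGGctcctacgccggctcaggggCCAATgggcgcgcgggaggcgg

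Asns: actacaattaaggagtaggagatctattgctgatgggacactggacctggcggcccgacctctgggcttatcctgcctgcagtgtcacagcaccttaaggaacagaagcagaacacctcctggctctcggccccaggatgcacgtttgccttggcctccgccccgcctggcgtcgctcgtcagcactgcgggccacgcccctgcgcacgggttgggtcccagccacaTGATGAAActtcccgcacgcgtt

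TGATGNAA was found in 1 of the 8 genes, as TGATGAAA at 23 bases before the start of Asns, and in 3.45% of all 32851 promoter windows. CACGTG was found in none, against 6.02% of all windows. CCAAT was found in 6 of the 8 genes (2 matches in Phgdh, Psat1, Psph and Atf4, 3 in Mthfd2 and 1 in Shmt1), against 33.8% of all windows. It was not found in Shmt2, Asns or the second Psat1 start. These shares are over windows (32851 of 27025 genes) and the counts are over genes, so the 2 are not like measures. A match is a description of these letters only.

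All 8 genes were higher in PyMT-M than in PyMT-N tumor cells. The log2 ratio in blood endothelial cells was smaller for all but Phgdh, which rested on 1 UMI in PyMT-N, and Atf4 stood at the same level within counting error. In tumor cells Phgdh, the entry enzyme, stood at 313 CPM in PyMT-M (309.5 to 315.9) against 14.7 CPM in PyMT-N (13.8 to 15.6), a ratio of 21.3. Psat1 stood at 109 and 5.52 CPM, a ratio of 19.7. Psph, the last step, stood at 64.7 and 11.8 CPM, a ratio of 5.50. The serine pathway thus differed most at its first steps and least at the phosphatase.

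The folate enzymes followed. Shmt1 stood at 24.3 CPM in PyMT-M against 1.90 in PyMT-N tumor cells, a log2 ratio of 3.68 (3.44 to 3.94). Shmt2 stood at 110.2 and 11.8 CPM, a log2 ratio of 3.22 (3.12 to 3.32). Mthfd2 stood at 109 and 16.8 CPM, a log2 ratio of 2.70 (2.61 to 2.78). Both compartments of the serine to glycine step were therefore higher in PyMT-M, with intervals for Shmt1 and Shmt2 that did not overlap.

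Asns stood at 261 CPM in PyMT-M against 21.9 in PyMT-N tumor cells, a log2 ratio of 3.57 (3.50 to 3.65). Atf4 itself stood at 201 and 85.3 CPM, a log2 ratio of 1.24 (1.20 to 1.28), the smallest of the set. In all, 8 of 8 genes were at least 2-fold higher, where 19.7% of the 12521 genes with at least 200 UMIs were higher and 22.3% lower by as much. Their median log2 ratio was 3.40, beside -0.04 over all those genes. Between rank 436 (Phgdh) and rank 2029 (Atf4) of the 12521, none was at the head of the list, so many other genes differed more between these tumor cells.

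**Figure D1:**
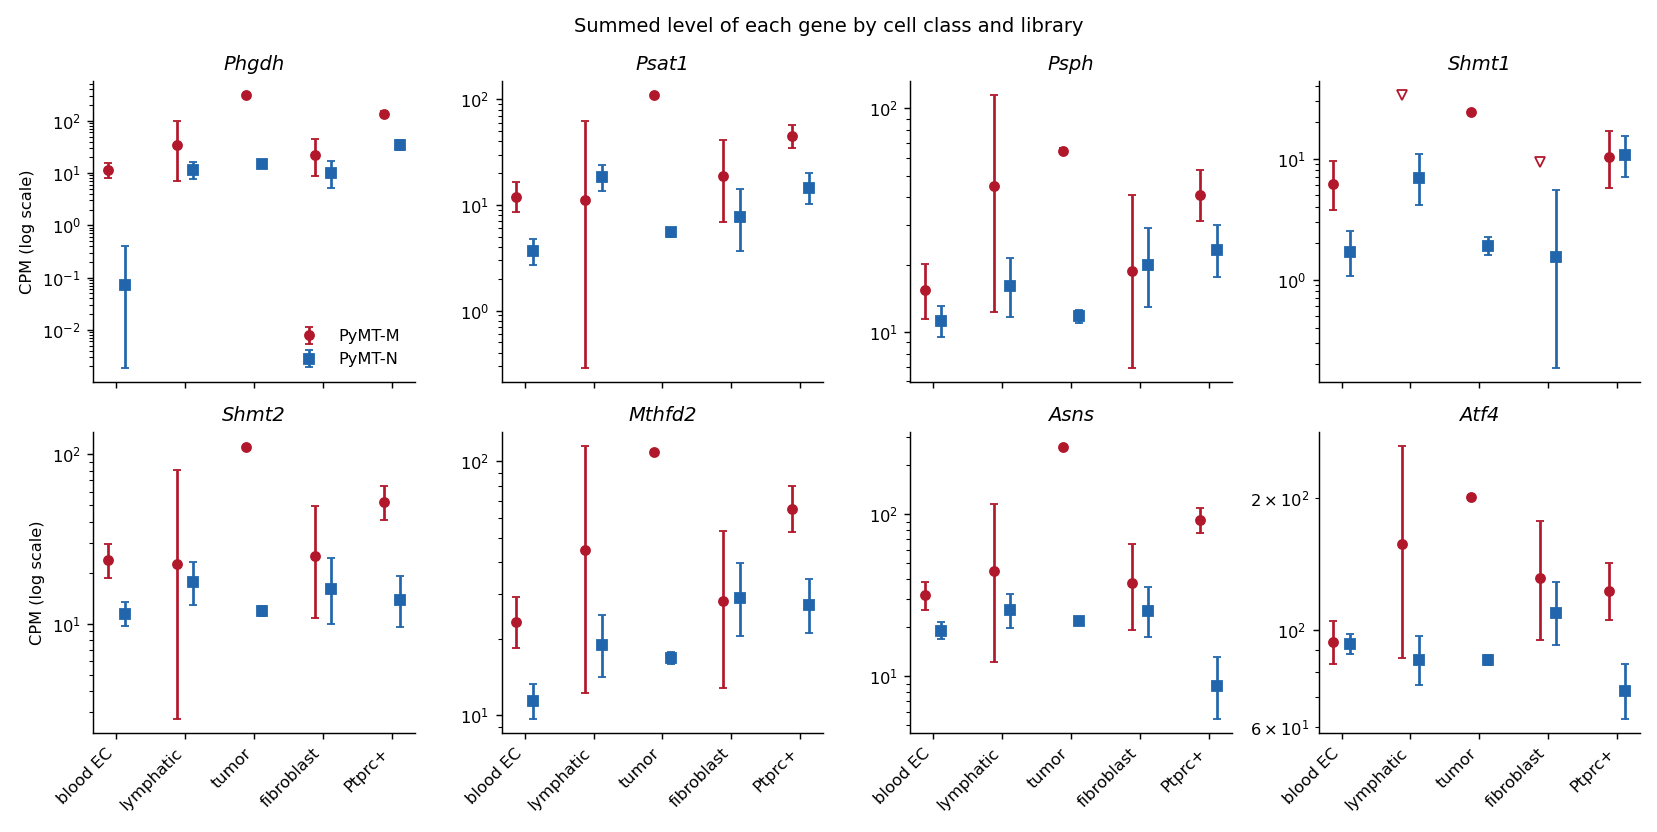
Summed level of each gene in CPM (log axis, a scale of its own in each panel) by cell class, for PyMT-M (circles) and PyMT-N (squares), with exact 95% Poisson intervals and open triangles for the limit that a count of 0 allows. In tumor cells the PyMT-M point lies above the PyMT-N point in all 8 panels, and Phgdh falls to 0.0728 CPM in PyMT-N blood endothelial cells.

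In blood endothelial cells 5 of 8 genes were at least 2-fold higher in PyMT-M, where 2.69% of 8174 genes were higher and 2.68% lower, and the median log2 ratio was 1.04 beside 0.00 over all those genes. That share was taken over genes with at least 200 UMIs, which 5 of the 8 reached, and of these 5 Shmt2 and Mthfd2 were at least 2-fold higher. Psat1 stood at 12.0 CPM in PyMT-M (39 UMIs) against 3.64 in PyMT-N (50 UMIs), a log2 ratio of 1.72 (1.07 to 2.35). Shmt1 stood at 6.14 and 1.67 CPM, from 20 and 23 UMIs, a log2 ratio of 1.87 (0.93 to 2.80). Shmt2 stood at 23.6 and 11.4 CPM, a log2 ratio of 1.05 (0.64 to 1.45). The intervals of these 3 genes lay above 0, as did those of Phgdh, Mthfd2 and Asns. Mthfd2 stood at 23.3 and 11.4 CPM, a log2 ratio of 1.04 (0.62 to 1.44). Asns stood at 31.6 and 19.1 CPM, a log2 ratio of 0.72 (0.38 to 1.06). Psph stood at 15.3 and 11.1 CPM, with an interval of the log2 ratio from -0.03 to 0.93. Atf4 was at 93.6 and 92.8 CPM, a log2 ratio of 0.01 (-0.17 to 0.19), so its level in endothelial cells differed by no more than counting error while several enzymes of the set stood higher. Markers of some other cells moved with these values. Pericyte markers summed to 73.0 CPM in PyMT-M blood endothelial cells and to 6.48 CPM in those of PyMT-N (Rgs5 at 50.6 and 3.13 CPM), and fibroblast markers to 28.8 and 5.75 CPM, with Lum at 0 in both. Epithelial markers summed to 19.0 and 0.728 CPM. Lymphatic markers went the other way, at 90.8 and 180.1 CPM. Markers of Ptprc+ cells (14.4 and 16.0 CPM) and of red blood cells (20.6 and 21.1 CPM) stood close in the libraries. Depth differed too, with a median of 5197 UMIs in PyMT-M blood endothelial cells against 12397 in those of PyMT-N. The part of these markers and of depth was not tested.

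Phgdh was nearly absent from PyMT-N blood endothelial cells. It had 1 UMI among 1013 cells (0.0728 CPM) in PyMT-N and 37 UMIs among 583 cells (11.4 CPM) in PyMT-M, a log2 ratio of 7.29 (4.72 to 12.6). The 37 UMIs lay in 27 cells, with at most 5 in a cell. Tumor RNA moved with this value. In PyMT-M blood endothelial cells 10 genes that stood at 100 CPM or more in PyMT-M tumor cells and at most 1 CPM in PyMT-N blood endothelial cells were present at a median of 2.61% of their tumor level (range 0.573 to 13.0%), and Phgdh stood at 3.63%, above 8 of these 10. At the median share, tumor RNA amounted to 8.17 of the 11.4 CPM. In the 539 PyMT-M blood endothelial cells with no UMI of Krt8, Krt18 or Rhox5, Phgdh was still at 11.4 CPM. The Phgdh level in PyMT-M blood endothelial cells thus lay within the range of the tumor RNA found there.

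The other genes stood at higher shares of their tumor level in PyMT-M blood endothelial cells. Psat1 and Asns were at 11.0% and 12.1%, each above 9 of the 10 genes and, like Phgdh, within their range. No expression in PyMT-M endothelial cells is read from the levels of these 3 genes alone. Psph, Shmt1, Shmt2 and Mthfd2 were at 21.4 to 25.2%, and Atf4 at 46.5%, above all 10. The median share was subtracted in each library, an alternative added after the data were seen. Log2 ratios of Psat1 and Shmt1 were then 1.35 and 1.74, while Shmt2 and Mthfd2 stood at 0.88 each. These ratios have no intervals. Psat1 at 11.0% lay below the highest share of 13.0%, so subtracting the median cannot show whether any of it remains. Nothing was left of Phgdh in PyMT-N. How much tumor RNA added to each gene was not tested beyond these values.

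**Figure D2:**
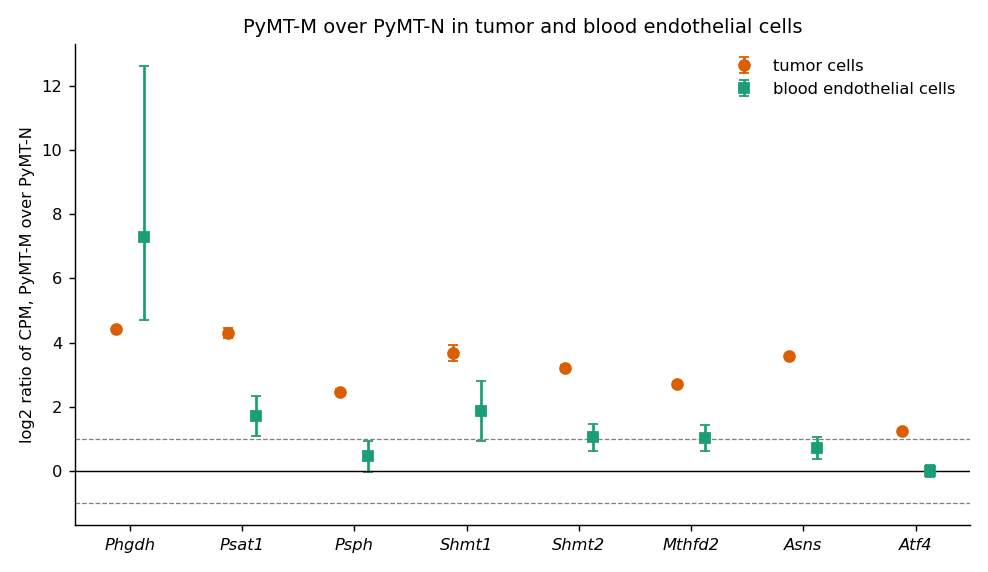
Log2 ratio of CPM, PyMT-M over PyMT-N, for each gene in tumor cells (circles) and blood endothelial cells (squares), with exact 95% intervals of a ratio of Poisson counts and dashed lines at 2-fold. Tumor cell ratios run from 1.24 (Atf4) to 4.41 (Phgdh), and the wide interval of Phgdh in blood endothelial cells rests on 1 UMI in PyMT-N.

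Tumor and blood endothelial cells of the same library were set side by side. In PyMT-M 8 of 8 genes were at least 2-fold higher in tumor cells, where 20.1% of 11293 genes were higher and 19.2% lower, with a median log2 ratio of 2.22. Phgdh had the highest ratio, 4.78 (4.32 to 5.29), and Atf4 the lowest, 1.11 (0.94 to 1.27). In PyMT-N 1 of 8 was, namely Phgdh at 14.7 against 0.0728 CPM, where 16.0% of 11591 genes were higher and 16.2% lower. Shmt1 had fewer than the 200 UMIs required for that share, so the like count was 1 of 7. The endothelial level of Phgdh rested on 1 UMI. The median log2 ratio of the 8 genes in PyMT-N was 0.19. Shmt2, at 11.8 CPM in tumor and 11.4 CPM in blood endothelial cells, and Psph, at 11.8 and 11.1 CPM, differed by no more than counting error in PyMT-N, and Atf4 was slightly lower in tumor cells, by a log2 ratio of -0.12 (-0.21 to -0.03). Psat1 and Mthfd2 were higher in PyMT-N tumor cells by log2 ratios of 0.60 (0.18 to 1.05) and 0.57 (0.33 to 0.82). Over the alternative settings the log2 ratio of Psat1 ran from -0.26 to 1.44, so its direction depended on the processing. That of Mthfd2 ran from 0.27 to 0.94. Apart from Phgdh no gene of the set differed by 2-fold between all these cells. Without cycling cells the count rose from 1 to 3. Psat1 then stood at 3.78 CPM in tumor and 1.39 CPM in blood endothelial cells and Shmt1 at 0.966 and 0.348 CPM. These endothelial levels rest on 16 and 4 UMIs, and Phgdh had no UMI in non-cycling blood endothelial cells. No share over all genes was computed for this count.

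Lymphatic cells differed from blood endothelial cells in PyMT-N, a comparison added after the data were seen. Phgdh had 31 UMIs in 16 of 204 lymphatic cells (11.3 CPM) and 1 UMI in blood endothelial cells, a log2 ratio of 7.28 (4.69 to 12.6). Of the 31 UMIs, 13 lay in the 15 cycling lymphatic cells (37.1 CPM, by the rule given below). The 189 non-cycling lymphatic cells held 18 (7.52 CPM), and 1 lymphatic cell held 7. The part of cycling was not tested. Psat1 stood at 18.2 CPM in lymphatic and 3.64 in blood endothelial cells, a log2 ratio of 2.32 (1.73 to 2.92). Shmt1 stood at 6.92 and 1.67 CPM, a log2 ratio of 2.05 (1.09 to 2.99). These were the 3 of 8 genes at least 2-fold higher in lymphatic cells, where 6.39% of 8233 genes were higher and 8.08% lower, and the other 5 had log2 ratios between -0.12 and 0.74. All 3 had fewer than the 200 UMIs required for that share, and of the 4 members that reached it 0 were 2-fold higher. Restricting the lymphatic cells to the 192 with at most 1 tumor marker UMI gave 12.5 CPM of Phgdh. With cells thinned to 3000 UMIs, Phgdh had a UMI in 7 of 202 lymphatic cells and in none of 1006 blood endothelial cells. The 20 PyMT-M lymphatic cells held 3 Phgdh UMIs and the 45 PyMT-M fibroblasts 7, too few cells for a ratio. Shmt1 had no UMI in either, which allows up to 33.7 and 9.37 CPM (3 counts).

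Ptprc+ cells, the immune cells left after CD45 depletion, held Phgdh UMIs in both libraries, at 136 CPM (PyMT-M) and 35.0 CPM (PyMT-N). Of 8 genes 5 were at least 2-fold higher in PyMT-M, where 4.45% of 3528 genes were higher and 3.49% lower. Only Phgdh and Atf4 reached the 200 UMIs required for that share, and Phgdh was the 1 of these 2 that was higher. The count of 5 did not hold once cells with tumor markers were taken out. In PyMT-M 22 of the 441 cells had 2 or more tumor marker UMIs, with a median of 22518.5 UMIs against 1530 in the other 419, and they held 156 of the 198 Phgdh UMIs. In cells with at most 1 tumor marker UMI, Phgdh stood at 46.2 CPM (33.3 to 62.5) in PyMT-M and 34.5 CPM (26.5 to 44.2) in PyMT-N. Of the 8 genes 0 were at least 2-fold higher in these cells. No share over all genes was computed for them, and Psat1, Asns and Shmt1 rest on 8, 6 and 2 UMIs in PyMT-M. Psat1 then stood lower in PyMT-M, at 8.81 against 15.9 CPM, as did Shmt1, at 2.20 against 12.1 CPM, from 2 and 22 UMIs. In PyMT-N, Phgdh was higher in these Ptprc+ cells than in tumor cells (14.7 CPM), with intervals that did not overlap.

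The order of Phgdh levels therefore differed between the libraries. In PyMT-M it ran from tumor cells through Ptprc+, lymphatic and fibroblast cells to blood endothelial cells, and the last 3 had overlapping intervals (7.99 to 15.6 CPM in blood endothelial cells). Without the 22 cells with tumor markers, the Ptprc+ interval (33.3 to 62.5 CPM) lay inside that of lymphatic cells (6.95 to 98.5 CPM). Tumor RNA was not separated from these PyMT-M levels. In all PyMT-M Ptprc+ cells Phgdh stood at 43.4% of its tumor level. Only 2 genes gave the tumor RNA share there, 23.6 and 48.7%. No such share was measured in lymphatic cells or fibroblasts. No expression in PyMT-M cells outside the tumor class is read from the order. In PyMT-N the order ran from Ptprc+ cells through tumor cells, lymphatic cells (11.3 CPM) and fibroblasts (9.94 CPM) to blood endothelial cells. Tumor, lymphatic and fibroblast intervals overlapped in PyMT-N. For Psat1 the head of the order changed in the same way, from tumor cells in PyMT-M to lymphatic cells in PyMT-N, where Ptprc+ cells at 14.6 CPM overlapped with them. Mthfd2 was highest in tumor cells in PyMT-M and in fibroblasts in PyMT-N, at 29.0 CPM, with overlapping intervals in Ptprc+ cells (27.2 CPM) and lymphatic cells (18.9 CPM). Atf4 varied by the smallest fold of the 8 genes, between 72.4 and 201 CPM over all classes and libraries.

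The difference between the tumor cells remained at equal depth. With each cell thinned to 3000 UMIs, Phgdh was detected in 57.6% of PyMT-M tumor cells (56.2 to 59.0%) and 3.45% of PyMT-N tumor cells (2.85 to 4.13%), against 97.7% and 15.7% before thinning. Asns was detected in 49.9% and 5.37% and Atf4 in 41.8% and 22.1%. Thinning left out 1 and 2 tumor cells. Among blood endothelial cells it left out 106 and 7, and Atf4 was detected in 23.3% (PyMT-M) and 24.0% (PyMT-N) of the rest. Phgdh had a UMI in 2.31% of PyMT-M and in 0 of 1006 PyMT-N blood endothelial cells, which allows a share of cells with a UMI at this depth of up to 0.298% (3 counts).

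More of the genes were detected per cell in PyMT-M than in PyMT-N tumor cells. After thinning, a tumor cell held a UMI of a mean of 2.52 of the 8 genes in PyMT-M against 0.440 in PyMT-N. The median was 2 in PyMT-M and 0 in PyMT-N tumor cells. At least 4 of the 8 were detected in 23.9% of PyMT-M and 0.244% of PyMT-N tumor cells. Whether the genes met in the same cells more often than their single shares give was not tested. Blood endothelial cells held a mean of 0.564 in PyMT-M against 0.378 in PyMT-N, so PyMT-N tumor cells lay between the endothelial cells of the 2 libraries in this measure.

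**Figure D3:**
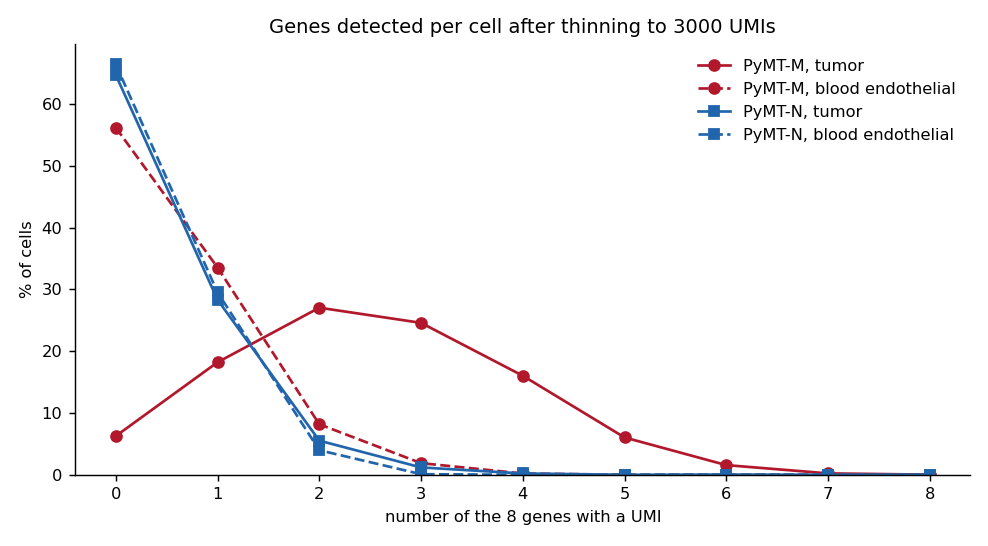
Percent of cells (vertical axis) with a UMI of 0 to 8 of the genes (horizontal axis) after thinning each cell to 3000 UMIs, for tumor cells (solid) and blood endothelial cells (dashed) of PyMT-M (circles) and PyMT-N (squares). None of the genes was detected in 6.27% of PyMT-M tumor cells, against 64.7% of PyMT-N tumor cells.

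Most PyMT-M tumor cells held Phgdh UMIs, and most PyMT-N tumor cells held none. Over PyMT-M tumor cells of at least 3000 UMIs, Phgdh had a median of 292 CPM per cell, with 102 CPM below and 546 CPM above it as the limits of the lowest and highest 10% of cells. In PyMT-N the median was 0. Among PyMT-N tumor cells, 45 (1.37%) had 5 or more Phgdh UMIs, 471 had 1 to 4 and 2762 had none. Across these 3 groups Psat1 stood at 43.1, 10.6 and 3.15 CPM, Asns at 105, 39.4 and 15.3 CPM, and Atf4 at 124, 87.7 and 83.5 CPM. Depth and cycling moved with the groups, with medians of 42522, 25013 and 20041 UMIs and 57.8, 13.2 and 4.38% of cells cycling, and their part was not tested. In PyMT-M tumor cells Asns stood at 286, 186 and 130 CPM over the same groups (3316, 1423 and 110 cells). Depth and cycling moved with these groups too, with medians of 26078, 18940 and 13486.5 UMIs and 86.5, 73.1 and 53.6% of cells cycling.

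Cells in cycle, taken as cells with at least 3 UMIs of Mki67, Top2a, Cdk1, Ccnb1 and Birc5, made up 81.8% of PyMT-M tumor cells (3968) and 6.38% of PyMT-N tumor cells (209), so both states are given apart. This rule cuts a range and does not define a cell type, and cycling cells were deeper (25008.5 against 19237 UMIs in PyMT-M and 32950 against 20267 in PyMT-N). In PyMT-M tumor cells 0 of 8 genes were at least 2-fold higher in cycling cells, where 3.78% of 10923 genes were higher and 0.403% lower. Phgdh stood at 318 CPM in cycling and 281 in non-cycling cells, and Shmt1, with the largest log2 ratio (0.88), at 26.0 and 14.1 CPM. In PyMT-N tumor cells 5 of 8 were, where 3.93% of 10823 genes were higher and 1.85% lower. Shmt1 had fewer than the 200 UMIs required for that share, so the like count was 4 of 7. Phgdh stood at 47.8 and 11.0 CPM, Psat1 at 21.0 and 3.78, Shmt1 at 10.2 and 0.966, Shmt2 at 25.2 and 10.3, and Mthfd2 at 40.6 and 14.2 CPM. Atf4 differed by a log2 ratio of 0.13 (0.02 to 0.25) there, and Psph by 0.47 (0.18 to 0.76).

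The difference between the libraries remained within each state. In the 881 and 3069 non-cycling tumor cells 8 of 8 genes were at least 2-fold higher in PyMT-M, where 13.7% of 11181 genes were higher and 23.8% lower, with a median log2 ratio of 3.35 beside -0.18 over all those genes. In cycling tumor cells it was again 8 of 8, where 16.7% of 11131 genes were higher and 14.0% lower, with a median of 2.13. The log2 ratio of Shmt1 was 3.87 (3.47 to 4.29) in non-cycling and 1.36 (1.03 to 1.70) in cycling cells, and that of Phgdh 4.68 (4.57 to 4.80) and 2.73 (2.58 to 2.89). These intervals did not overlap, so for both genes the libraries lay further apart outside the cycle.

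Blood endothelial cells in cycle, 102 in PyMT-M (17.5%) against 124 in PyMT-N (12.2%), also held more of the folate genes. In PyMT-N 5 of the 7 genes with a UMI in both states were at least 2-fold higher in cycling cells, where 3.39% of 7501 genes were higher and 3.76% lower. Only Asns and Atf4 reached the 200 UMIs required for that share, and 1 of these 2, Asns, was 2-fold higher. Psat1 stood at 15.2 and 1.39 CPM, a log2 ratio of 3.45 (2.56 to 4.41). Shmt1 stood at 8.50 and 0.348 CPM, from 19 and 4 UMIs. Mthfd2 stood at 31.8 and 7.39 CPM, a log2 ratio of 2.11 (1.63 to 2.58). Atf4 was lower in cycling cells there, at 78.3 against 95.6 CPM. In PyMT-M 4 of 8 were at least 2-fold higher, where 2.81% of 3101 genes were higher and 2.52% lower, with Psat1 at 28.6 and 5.87 CPM and Mthfd2 at 49.2 and 13.8 CPM. None of these 4 reached the 200 UMIs required for that share. They include Phgdh and Psat1, whose levels over all PyMT-M blood endothelial cells lay within the range of tumor RNA. No tumor RNA share was measured in cycling and non-cycling cells apart, so its part in these 4 genes was not tested. Cycling blood endothelial cells were also deeper, with medians of 8102 against 4461 UMIs in PyMT-M and 16364.5 against 11934 in PyMT-N. The part of depth was not tested.

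Within the non-cycling blood endothelial cells 3 of the 7 genes with a UMI in both libraries were at least 2-fold higher in PyMT-M, where 2.62% of 7516 genes were higher and 2.65% lower. These were Psat1 from 14 and 16 UMIs, Shmt1 from 7 and 4, and Shmt2 from 48 and 103. All 3 lie below the 200 UMIs required for that share, and of the 2 members that reached it, Asns and Atf4, 0 were 2-fold higher. Phgdh had 18 UMIs in PyMT-M against none in PyMT-N there. Over all PyMT-M blood endothelial cells the levels of Psat1 and Phgdh lay within the range of tumor RNA. In cycling blood endothelial cells the count was 1 of 8, Phgdh, where 1.95% of 2978 genes were higher and 2.01% lower. For Psph, Shmt1, Shmt2, Asns and Atf4 the interval held 0 in cycling cells. Only Atf4 reached 200 UMIs there.

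**Figure D4:**
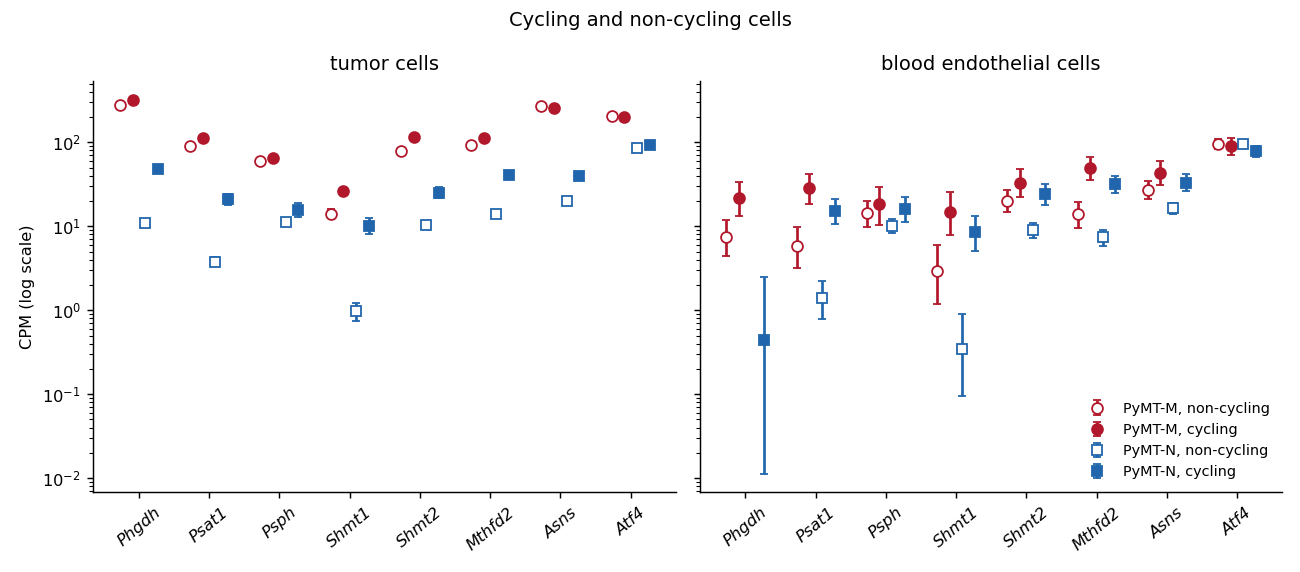
Level of each gene in CPM (log axis) in non-cycling (open) and cycling (filled) tumor cells (left) and blood endothelial cells (right) of PyMT-M (circles) and PyMT-N (squares), with exact 95% Poisson intervals. In tumor cells every PyMT-M point lies above both PyMT-N points of the same gene, and Phgdh stands at 11.0 and 47.8 CPM in the 2 states in PyMT-N. Phgdh in non-cycling PyMT-N blood endothelial cells had no UMI and no point.

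Neighboring pathways were read from 10 lists with 122 genes that do not include the set. In tumor cells 48 of the 108 genes with at least 200 UMIs (44.4%) were at least 2-fold higher in PyMT-M and 11 (10.2%) were at least 2-fold lower, beside 19.7% and 22.3% of all genes. Among blood endothelial cells 1 of 83 was higher and 2 were lower, beside 2.69% and 2.68%. A gene with no UMI in a library was counted at its bound against a floor of 3 counts over the class. In the pairs of levels below PyMT-M comes first, over cycling and non-cycling cells together. Cycling cells made up 81.8% of tumor cells in PyMT-M and 6.38% in PyMT-N. In non-cycling tumor cells 46 of 105 genes (43.8%) were at least 2-fold higher in PyMT-M and 9 (8.57%) lower, beside 13.7% and 23.8% of all genes. The part of cycling in the single genes named below was not tested.

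Folate enzymes did not move together. Of 14 counted genes of the list, 6 were at least 2-fold higher in PyMT-M tumor cells and 2 lower, with a median log2 ratio of 0.66. Mthfd1l, the mitochondrial formate producer downstream of Mthfd2, stood at 106 and 23.4 CPM, and Mthfd1, the cytosolic trifunctional enzyme, at 56.3 and 11.1 CPM. Tyms, which makes thymidylate, stood at 37.1 and 24.3 CPM. Mthfd2l, the paralog of Mthfd2, stood at 30.0 and 41.6 CPM, a log2 ratio of -0.47 (-0.54 to -0.40). Aldh1l2, the mitochondrial formyltetrahydrofolate dehydrogenase, was higher in PyMT-M at 18.0 against 0.869 CPM. Its cytosolic relative Aldh1l1 was lower, at 0.610 against 10.1 CPM. The other of the 2 lower genes was Ggh, which trims the glutamate tail of folates, at 0.0167 CPM (2 UMIs) against 15.2 CPM, and it was singled out after its values were seen.

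Of the glycine cleavage genes, which break glycine down in mitochondria, 3 of 3 counted were at least 2-fold higher. Gcsh stood at 132.5 and 31.1 CPM and Dld at 100.4 and 45.9 CPM. Gldc, singled out after its values were seen, had 933 UMIs in PyMT-M against 7 in PyMT-N, 7.80 against 0.0935 CPM. For purine synthesis, which uses folate carbon, 7 of 12 were higher and 0 lower (median 1.23), with Adsl at 81.6 and 19.9 CPM and Impdh1 at 44.5 and 12.1 CPM, and with Prps2 lowest at 8.30 and 16.3 CPM. For the methionine cycle 3 of 7 were higher and 0 lower, and for glycolysis, which supplies 3-phosphoglycerate, 4 of 9 were higher and 1 lower. Pgk1, the enzyme that makes 3-phosphoglycerate, stood at 646 and 218 CPM, whereas hexokinase Hk2 stood at 41.6 and 95.9 CPM.

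Amino acid supply was uneven. In the list of serine and glycine transport and use, 2 of 12 were higher and 3 lower (median 0.15). The transporters Slc38a1 and Slc1a5 were the high end, at 85.7 against 1.48 CPM and 64.7 against 9.89 CPM. Serinc3 and Serinc1, named for a role in incorporating serine into membranes, were the low end, at 35.3 against 146 CPM and 54.2 against 155 CPM. For glutamate, aspartate and asparagine supply 7 of 11 were higher and 0 lower (median 1.22), led by Gpt2, an alanine transaminase, at 28.6 and 4.57 CPM and by Glud1, glutamate dehydrogenase, at 351 and 108 CPM. Glutamine synthetase, Glul, was lowest at 15.6 and 27.8 CPM.

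ATF4 targets outside the set did not move in 1 direction. Of 18 counted, 7 were at least 2-fold higher in PyMT-M tumor cells and 4 lower, with a median log2 ratio of 0.37. In non-cycling tumor cells 7 of 17 were higher and 3 lower, with a median of 0.94. Chac1, which degrades glutathione, stood at 6.94 and 0.321 CPM, and Trib3, a pseudokinase that restrains ATF4, at 39.2 and 2.43 CPM. Slc7a11, the cystine transporter, was lower at 1.50 and 4.88 CPM, and so was Nupr1, a stress-induced chromatin protein, at 204 and 1121 CPM. Ddit3, the stress factor CHOP, stood at 19.8 and 29.3 CPM, a log2 ratio of -0.56 (-0.65 to -0.48). The aminoacyl-tRNA synthetases all leaned to PyMT-M, 7 of 12 by at least 2-fold (median 1.11), from Yars at a log2 ratio of 0.55 (0.48 to 0.62) to Cars at 1.64 (1.56 to 1.72). In the list for the control of ATF4, 2 of 10 were higher and 1 lower. Myc stood at 139 and 14.1 CPM and Eif2s1, which encodes the phosphorylated subunit of eIF2, at 315 and 112 CPM, while the kinase gene Eif2ak3 stood at 13.1 and 21.2 CPM.

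In blood endothelial cells Myc was the gene at least 2-fold higher in PyMT-M, at 39.6 and 12.9 CPM, a log2 ratio of 1.62 (1.28 to 1.95). Slc38a1 and Ddit4 were the 2 lower, at 17.8 against 44.2 CPM and 29.8 against 64.0 CPM. Slc38a1 thus differed in opposite directions in tumor and blood endothelial cells. Mthfd1 stood at 20.9 and 13.2 CPM, a log2 ratio of 0.66 (0.24 to 1.07), whereas Gcsh and Dld differed by no more than counting error. Trib3 stood at 9.20 and 15.4 CPM, the reverse of its direction in tumor cells.

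**Figure D5:**
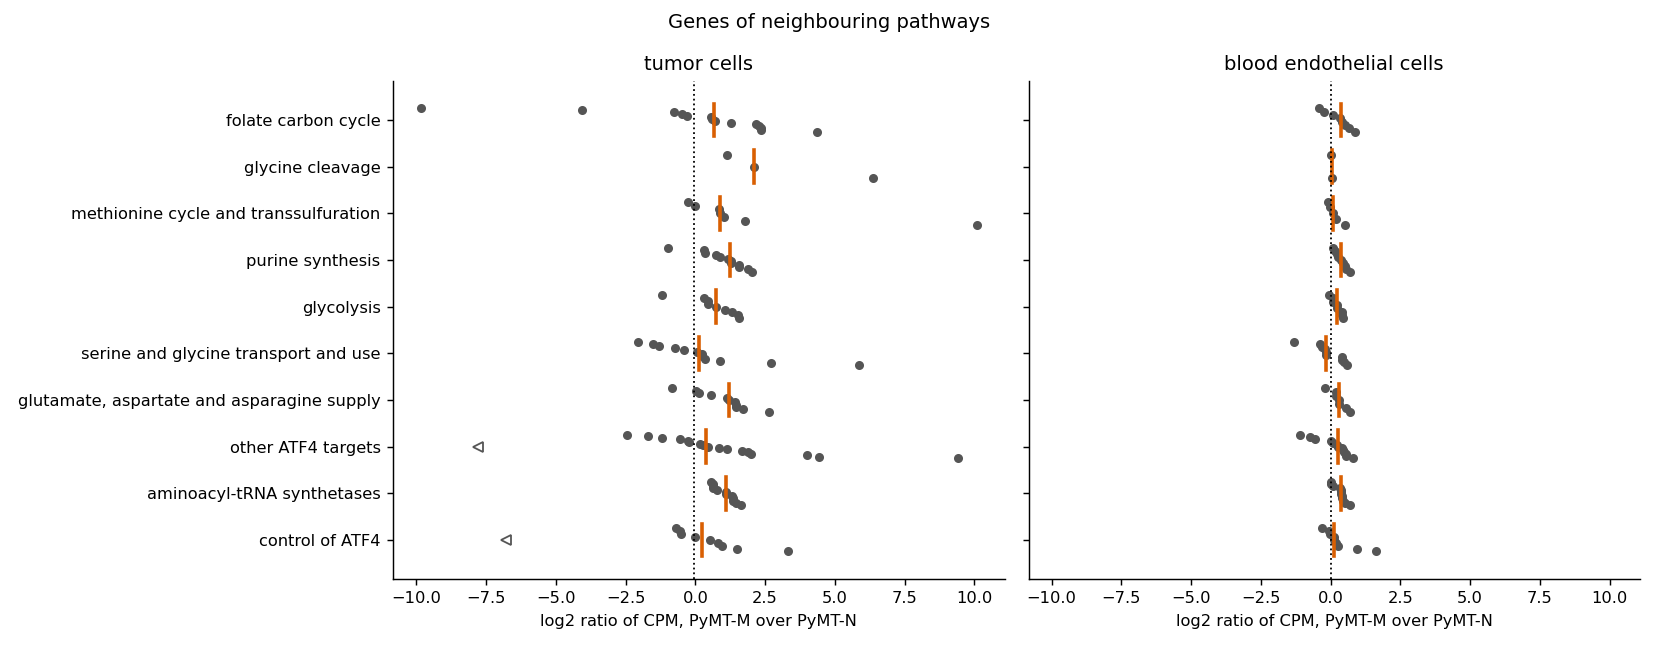
Log2 ratio of CPM, PyMT-M over PyMT-N, for each gene with at least 200 UMIs (points) of the neighboring pathways (rows) in tumor cells (left) and blood endothelial cells (right), with list medians as bars, the median of all genes dotted, and triangles for genes with no UMI in PyMT-M, at their bound. Tumor cell ratios are wide, with list medians from 0.15 to 2.09, while those of blood endothelial cells lie close to 0.

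Genes with the most similar profile were found over the 8 class and library sums of at least 50 cells, as Pearson's r of log2(CPM + 5) among 11886 genes. These 8 points share 2 libraries and were summed over unequal numbers of UMIs, so r is a description. Mthfd2 was the closest gene to Psph (r = 0.99) and Psph the second closest to Mthfd2 (r = 0.99), the sole pair inside the set among the nearest 3 of any member. Phgdh lay closest to Blvrb, Aatf and Ivd (r = 0.98 to 0.99), and Psat1 to Nup88, Obi1 and Prmt7. Shmt1 lay closest to Mdc1, Abraxas1 and Mre11a, genes of DNA repair, Shmt2 to Esx1, Tsfm and Nxf3, and Mthfd2 to Fam50a and Abcb10 besides Psph. Asns lay closest to Aspscr1, Bc1 and Def8 and Atf4 to Itgb1bp1, Pgm1 and Prkar2a. Within the set, after Psph and Mthfd2, several pairs were equally close at r = 0.96. These were Asns and Shmt2, Phgdh and Mthfd2, Asns and Atf4, and Psat1 and Shmt2. Shmt1 and Atf4 were furthest apart (r = 0.59).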

How the data were processed

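Endothelial-enriched cells of PyMT-M and PyMT-N tumors were profiled with 10x Genomics 3′ v3.1 chemistry. The authors deposited unnormalized UMI counts for each gene and barcode, made with Cell Ranger 8.0.0 on mm39 according to the submitters' processing notes. The sources used here do not name the annotation. The methods of the study name collagenase II and dispase II, the labels collagenase I.

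Cells were kept and classed by the rules given in the text, with endothelial cells meeting the lymphatic rule (at least 3 UMIs of Prox1, Mmrn1 and Reln) counted as lymphatic. Blood endothelial cells had at least 5 UMIs of Pecam1, Flt1, Emcn and Kdr and at most 1 tumor marker UMI, fibroblasts at least 3000 CPM of Col3a1. Cells meeting more than 1 other rule were left out (60 in PyMT-M, 88 in PyMT-N), and 721 and 693 met none. Counts were summed per class and library and compared as ratios of CPM. A class of fewer than 50 cells in a library got no ratio. No doublets were removed in the values reported.

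The 8 genes, the pathway lists and the comparisons were chosen with earlier results of these data known. The genes named are the 8, the 2 highest and 2 lowest of each list among genes with at least 200 UMIs and 10 on the lower side, genes whose role joins them to the set, and the 3 nearest profiles, and some named after their values were seen. A gene that this rule names is not reported here. Current symbols that the count tables do not hold (tRNA synthetases, Adss2) were looked up by their older names. Promoters came from RefSeq (GRCm38.p6). The ratios and their intervals were run on simulated Poisson counts, the model that the intervals assume, so this checked their computation only. Scripts ran under Python 3.11.15 with matplotlib 3.10.9, pandas 2.3.3, scipy 1.17.1, numpy 2.4.6 and, for doublet scores, scanpy 1.11.5. Alternatives covered limits on genes and mitochondrial UMIs, doublets, class rules, scaling, mean over cells, cycling cells, tumor RNA, count minimum, pseudocount and thinning depth.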

Additional observations from a re-analysis of the deposited data

How the results depend on the processing

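With 1 library per subline there is no replicate to leave out. No paired analysis was possible because each group has 1 library, and its pooled tumors carry no label. Of 333 recomputed ratios 270 stayed within their counting interval, 62 moved beyond it and 1 reversed. Only ratios at least 2-fold apart in the reported values could be counted as reversed. Some smaller ratios changed sign as well. Among them were Psph in Ptprc+ cells (log2 ratio down to -0.26) and Psat1 and Shmt1 between tumor and blood endothelial cells of PyMT-N (down to -0.26 and -0.63). In tumor cells 8 of 8 genes stayed at least 2-fold higher in PyMT-M under every alternative run, with log2 ratios of 4.41 to 4.71 for Phgdh and 1.23 to 1.44 for Atf4. In blood endothelial cells the count of 5 genes fell to 2 when cells meeting more than 1 rule, lymphatic ones included, were counted in each class. There the log2 ratio of Phgdh fell to 1.71. With tumor RNA subtracted at its median share the count was 3, Phgdh among them although nothing was left of it in PyMT-N. In Ptprc+ cells the count of 5 became 3 without the highest doublet scores, 1 as a mean over cells, 2 without cycling cells and 0 with at most 1 tumor marker UMI, where Psat1 reversed to a log2 ratio of -0.85. Between tumor and blood endothelial cells of PyMT-N the count of 1 became 3 without cycling cells. No share over all genes was computed for these changed counts. With a pseudocount of 1 CPM 14 of the 24 nearest profiles were found again. Scrublet called 0 cells of PyMT-M and 2.71% of PyMT-N cells doublets, and in place of its calls 419 and 364 cells of the highest scores were left out. The limit around the median number of genes left too few Ptprc+ cells for a ratio. Tumor RNA subtraction and the limits on tumor marker UMIs were added after the data were seen. Phgdh and Shmt1 in blood endothelial cells rest on 1 to 37 UMIs.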

Other observations

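Some genes next to the pathway were nearly absent from the tumor cells of 1 library, and they were singled out after their values were seen. Blood endothelial cells of both libraries held Mtap and Ggh. Mtap, which returns the methylthio group of polyamine synthesis to the methionine cycle, had 8710 UMIs in PyMT-M tumor cells (72.8 CPM) and 5 in PyMT-N tumor cells (0.0668 CPM), a log2 ratio of 10.1 (8.87 to 11.7). In blood endothelial cells Mtap stood at 53.7 CPM (PyMT-M) and 37.5 CPM (PyMT-N). Ggh, which trims the glutamate tail of folates, ran the other way, with 2 UMIs in PyMT-M tumor cells and 1141 in those of PyMT-N (0.0167 and 15.2 CPM), against 37.4 and 29.6 CPM in blood endothelial cells. Gdf15, a secreted stress factor, stood at 27.3 CPM in PyMT-M and 0.0401 CPM (3 UMIs) in PyMT-N tumor cells. Vldlr, a lipoprotein receptor, had no UMI in PyMT-M tumor cells and 420 UMIs in those of PyMT-N, and Mycn, a relative of Myc, none and 208. Line, library and pool cannot be told apart here.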
